A study of Mus musculus with 25 samples.

Results

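The genes Snx15, Rcor2, Gstp3 and Gbf1 lie on mouse chromosome 19, and each was followed here through the 10 kb bin that holds it. The bins were chr19:6120001-6130000 for Snx15, chr19:7260001-7270000 for Rcor2, chr19:4050001-4060000 for Gstp3 and chr19:46150001-46160000 for Gbf1 (mm10, the build in the submitters' processing notes). They are 4 of the 144091 bins that hold an interaction in any of the 9 deposited lists, and 4 of 4033 such bins on chromosome 19. They were chosen by their number of KLF4 interactions, which is among the highest of the chromosome, so their KLF4 numbers are given as a description, with no test. Every bin pair that touches one of them in any list was taken, which gave 44 partner bins for Snx15, 43 for Rcor2, 33 for Gstp3 and 20 for Gbf1.

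The study followed chromatin contacts while mouse fibroblasts were turned into pluripotent cells, with 25 libraries in 9 groups. In HiChIP, neighbouring DNA ends in the fixed nucleus are ligated and the ligated fragments are pulled down with an antibody, here to KLF4 or to acetylated lysine 27 of histone H3 (H3K27ac), which marks active regulatory DNA. Hi-C leaves out the antibody and so reads contacts whatever is bound there. H3K27ac HiChIP was done in mouse embryonic fibroblasts (MEF, 2 libraries), V6.5 embryonic stem (ES) cells in 2i medium (2 libraries), and a line labelled TKO on V6.5 in 2i, without doxycycline (0 h, 3 libraries) or after 24 h of it (3 libraries). KLF4 HiChIP was done on day 3 (3 libraries) and day 6 (4 libraries) of reprogramming and in ES cells (4 libraries), and Hi-C in MEF and ES cells (2 libraries each). The MEFs came from E13.5 embryos heterozygous for an Oct4-GFP reporter, a doxycycline-driven OKSM cassette and an rtTA3 transactivator, while the series' design text names a Rosa26 M2rtTA allele. Day 3 cells were taken in bulk and day 6 cells after a sort for the surface protein SSEA1, both under doxycycline with ascorbic acid. Because OKSM encodes KLF4 itself, the day 3 and day 6 libraries can read KLF4 made from the transgene, and the MEF libraries carry the same alleles uninduced. What TKO stands for is not given in the sources used here.

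KLF4 is a zinc finger transcription factor that binds GC-rich and CACCC-type sequence at promoters and enhancers, and it is one of the factors used to reprogram fibroblasts. In ES cells many of its sites carry H3K27ac and lie close in the nucleus to other such sites. Rcor2 encodes a corepressor of the CoREST family that works with the histone demethylase Kdm1a and with histone deacetylases, and it is expressed in ES cells. Gstp3 encodes a pi class glutathione transferase, an enzyme that conjugates glutathione to electrophiles, and it sits in a cluster with its paralogs Gstp1 and Gstp2. Snx15 encodes a sorting nexin of the endosomal membrane. Gbf1 encodes a large guanine nucleotide exchange factor that activates Arf GTPases at the Golgi.

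The promoter sequences of Rcor2, Gstp3 and Gbf1 show the DNA at the gene starts that lie in these bins, and they come from RefSeq on GRCm38.p6, the assembly of mm10. Each runs 5′ to 3′ on the gene's strand from 250 bases before the start to 50 after it, and positions count from that start. For Gstp3 and Gbf1 the promoter start lies inside the gene span given below, not at its 5′ end. Capitals mark the KLF-type motif GGGNGTG, which was searched on both strands (CACNCCC on the other). Of 32851 promoters of 300 bases, 29.2% hold the motif at least once. The Rcor2 promoter is at chr19:7267144-7267443 on the plus strand, the Gstp3 promoter at chr19:4059398-4059697 on the minus strand and the Gbf1 promoter at chr19:46152308-46152607 on the plus strand.
Rcor2: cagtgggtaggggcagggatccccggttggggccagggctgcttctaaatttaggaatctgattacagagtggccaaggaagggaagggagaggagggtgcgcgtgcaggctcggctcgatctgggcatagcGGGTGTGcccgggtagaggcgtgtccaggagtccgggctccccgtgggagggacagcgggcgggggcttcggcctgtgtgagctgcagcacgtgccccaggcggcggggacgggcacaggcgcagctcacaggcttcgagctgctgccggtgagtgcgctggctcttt
Gstp3: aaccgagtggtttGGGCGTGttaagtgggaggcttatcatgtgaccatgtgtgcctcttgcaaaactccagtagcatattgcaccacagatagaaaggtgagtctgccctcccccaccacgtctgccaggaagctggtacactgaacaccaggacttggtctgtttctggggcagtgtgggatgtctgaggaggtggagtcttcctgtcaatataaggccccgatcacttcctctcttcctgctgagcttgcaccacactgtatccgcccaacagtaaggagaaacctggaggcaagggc
Gbf1: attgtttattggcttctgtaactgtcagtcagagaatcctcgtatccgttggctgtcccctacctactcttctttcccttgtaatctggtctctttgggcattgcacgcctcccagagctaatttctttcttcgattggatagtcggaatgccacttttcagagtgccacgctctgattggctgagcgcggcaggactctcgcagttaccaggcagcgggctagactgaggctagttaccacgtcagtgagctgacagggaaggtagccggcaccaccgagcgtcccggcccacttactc
The Rcor2 promoter held 1 match, from -118 to -112 relative to the start, and had a GC content of 67.3% with 21 CpG pairs. The Gstp3 promoter held 1 match from -237 to -231, with 53.7% GC and 5 CpG pairs. These letters do not occur in the Gbf1 window, which had 53.7% GC and 15 CpG pairs. Per the authors' annotation of the TKO lists, the Snx15, Rcor2 and Gstp3 bins held an H3K27ac ChIP peak at both 0 h and 24 h, and the Gbf1 bin held none.

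The bins sit differently in their genes and domains. Snx15 (chr19:6119399-6132415) covers its whole bin and has both ends outside it, Rcor2 (chr19:7267394-7275225) has its first 2607 bases in its bin, Gstp3 (chr19:4057470-4059605) lies in its bin with all 2136 bases, and Gbf1 (chr19:46152509-46286510) has its first 7492 bases there. The deposited domain lists put Gbf1 in the same 280 kb domain in MEF and ES cells (chr19:46040001-46320000), and all 17 of its ES KLF4 partners lay inside it. Snx15 lay in 1 domain of 1960 kb in both cell types (chr19:4440001-6400000). Rcor2 lay in a 400 kb domain in ES cells (chr19:7040001-7440000) and a 1680 kb one in MEF (chr19:7040001-8720000). No domain in either list covered Gstp3. All 21 ES KLF4 partners of Snx15 and all 18 of Rcor2 lay inside their ES domain, as did 29 of the 40 ES H3K27ac partners of Rcor2. The ES domain ends lay 1680 and 270 kb from the Snx15 bin, 220 and 170 kb from Rcor2, and 110 and 160 kb from Gbf1. The longest ES KLF4 distances were 250, 160 and 160 kb, so at Snx15 and Rcor2 no partner at such distances could lie outside. The share of all interactions that stay inside a domain was not counted.

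HiChIP libraries held 48.7 to 181 M contacts, of which 1.10 to 4.33 M were on chromosome 19, and CPM is the count scaled to the contacts of chromosome 19 in the library. The Hi-C values are the authors' scaled signal, and the Hi-C lists held 5576165 to 10015967 counts per library. Each list was filtered by the authors, so a missing interaction can have any value below their filters. In the KLF4 lists only libraries 1 and 2 had no CPM under 3. The others went down to 0 on day 3 and in ES cells, and to 0.343 on day 6. Whether this sets libraries 1 and 2 apart from the rest was not tested. Libraries of ES KLF4 (1 with 2, and 3 with 4) and of TKO at 24 h (1 with 3) showed no difference beyond sampling noise by a chi-square test. Each such pair was counted as 1 sample, which leaves n = 2 in both groups. The day 6 KLF4 libraries showed none either, but were kept as n = 4, so their SDs do not compare with those of ES KLF4. Nothing in the labels says that replicates came from separate cultures or animals, so p-values measure the spread between these samples, which may be technical. Of the marker genes with an annotated bin, all 6 ES markers had more H3K27ac interactions in ES cells than in MEF, and 4 of 5 fibroblast markers had fewer.

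In ES KLF4, Snx15 had 21 listed interactions, Rcor2 18, Gstp3 17 and Gbf1 17. Among the 1477 bins of chromosome 19 with any ES KLF4 interaction, where the median was 2, Snx15 ranked first, Rcor2 was at rank 4, and Gstp3 and Gbf1 shared rank 6. On day 3 the numbers were 6 for Snx15, 9 for Rcor2, 0 for Gstp3 and 6 for Gbf1. On day 6 they were 2 for Snx15, 0 for Rcor2, 1 for Gstp3 and 11 for Gbf1. As listed, Gbf1 had more on day 6 than on day 3 while Snx15 and Rcor2 had fewer, and its 11 were the most of any of the 718 chromosome 19 bins listed on day 6. The day 6 list is much shorter (4047 interactions) than those of day 3 (23720) and ES (24589).

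Those KLF4 numbers follow the choice of the bins, and each stands against a background. All 4 genes had more interactions in ES KLF4 than on day 3, as had 60.3% of the 350 annotated chromosome 19 bins, and more than on day 6, as had 91.6% of 335. Gbf1 had more on day 6 than on day 3, as had 28 of 279 bins, while 81.7% had fewer. With the 3 KLF4 lists trimmed to equal length by mean CPM, Gbf1 had 5 interactions on day 3, 11 on day 6 and 5 in ES cells. Snx15 then had 2, 2 and 3, Rcor2 2, 0 and 2, and Gstp3 0, 1 and 4. The numbers rest on the authors' CPM scale, which is set within each chromosome and lets through lower counts on a small one. With 1 count cutoff for all chromosomes, the ES KLF4 numbers were 1 for Snx15, 2 for Rcor2, 3 for Gstp3 and 2 for Gbf1. The order of day 3 and day 6 at Gbf1 turned under that cutoff, with 2 on day 3 and 1 on day 6, and with the neighbouring bins added, with 18 and 17. Of the 73 ES KLF4 interactions, 1 had a deposited FDR under 0.1, against 0.199% of the whole ES KLF4 list.

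The H3K27ac numbers split the genes. Rcor2 had 8 listed H3K27ac interactions in MEF and 40 in ES cells, Gstp3 had 8 and 23, and Snx15 had 16 and 31. Gbf1 went the other way, from 15 in MEF to 2 in ES cells. Of 401 annotated chromosome 19 bins, 69.8% had more in ES cells and 24.7% had fewer. With 1 count cutoff for all chromosomes, Gbf1 had 2 in MEF and 0 in ES cells. Rcor2 then had 0 and 16, Gstp3 1 and 4, and Snx15 4 and 6. At a deposited FDR under 0.1, Gbf1 had 0 and 0, Rcor2 0 and 9, Gstp3 0 and 1, and Snx15 0 and 4. Chromosome 19 contacts were 1.78 and 2.53 M in the MEF libraries and 4.25 and 4.33 M in the ES libraries. The TKO lists resembled ES cells in number at all 4 genes. At 0 h there were 35 interactions for Snx15, 36 for Rcor2, 19 for Gstp3 and 3 for Gbf1, and at 24 h there were 31, 33, 22 and 3. Of 421 annotated bins, 56.1% had fewer at 24 h and 25.9% had more. Each number comes from 1 list per group, so it has no replicate error.

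**Figure D1:**
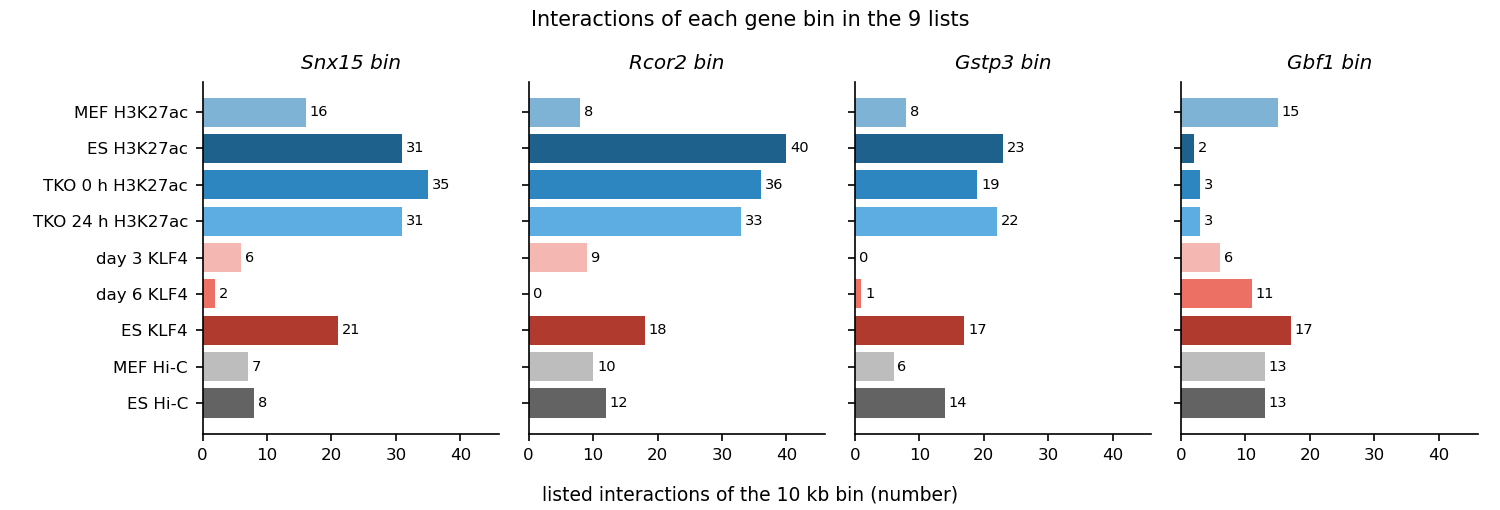
Listed interactions (number, horizontal axis) of each gene bin in the 9 lists, 1 bar per list, blue for H3K27ac, red for KLF4 and grey for Hi-C. Rcor2 goes from 8 to 40 between MEF and ES H3K27ac while Gbf1 goes from 15 to 2, and all 4 genes have 17 to 21 in ES KLF4.

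The Rcor2 bin had the most compact ES KLF4 contacts along with Gbf1. Its 18 partners lay at a median distance of 60 kb and at most 160 kb away, 6 at lower and 12 at higher coordinates. The strongest joined Rcor2 to the bin 10 kb below it, with CPM values of 17.2, 14.5, 21.6 and 22.7 in the 4 ES libraries (mean 19 ± 4.50, SD, n = 2) and 10.9, 17.2 and 13.7 on day 3. The next joined it to the bin 20 kb below, which holds Naa40, a histone N-terminal acetyltransferase, at 15.3, 11.4, 12.9 and 12.7 (13.1 ± 0.421, n = 2). The third was the bin 30 kb below, at 9.03, 7.62, 4.64 and 7.32. The longest, 160 kb above Rcor2, had 3.16, 4.57, 3.09 and 3.85. Other ES KLF4 partners held Otub1, a deubiquitinase, Cox8a, a cytochrome c oxidase subunit, and Mark2, a kinase of microtubule-associated proteins.

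Most of the early Rcor2 contacts recurred in ES cells. Of its 9 day 3 interactions, 8 were also listed in ES KLF4, which is 8 of its 18 there. Averaged over those 8, the day 3 libraries had 8.19, 7.48 and 6.24 CPM and the ES libraries 8.97, 8.29, 7.92 and 8.33. The highest day 3 library lay within the range of the ES libraries and the other 2 lay below it.

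The Gstp3 bin had no KLF4 interaction on day 3 and 1 on day 6. Its 17 ES partners reached up to 200 kb, 14 of them at higher coordinates. The strongest joined it to the next bin below, which holds its paralog Gstp2, at 14.4, 16.0, 17.0 and 11.2 CPM (14.7 ± 0.806, n = 2). The bin 10 kb above had 10.8, 15.2, 10.3 and 8.09. The bin 30 kb above, which holds Cabp2, a calcium-binding protein gene, had 14.0, 9.15, 10.3 and 9.25 (10.7 ± 1.27, n = 2). The longest, 200 kb above Gstp3, had 6.77, 9.91, 4.12 and 3.85 (6.16 ± 3.08, n = 2), and libraries 1 and 2 lay above libraries 3 and 4. In that list only libraries 1 and 2 have no CPM under 3. Gstp1, Gstp2 and Gstp3 are paralogs, and how reads that fit more than 1 place were handled is not given in the sources used here, so values of contacts within this cluster are less certain.

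The single day 6 contact of Gstp3 led 150 kb away to the bin of Rad9a, which encodes a subunit of a DNA damage checkpoint clamp. It had 4.55, 3.12, 2.83 and 1.72 CPM on day 6 (3.05 ± 1.16, n = 4) and 7.22, 4.57, 4.64 and 4.24 in ES cells, and the highest day 6 library reached the lower end of the ES values. Further ES partners of Gstp3 held Cdk2ap2 and Pitpnm1, Rps6kb2, Ppp1ca and Pold4.

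Snx15 had the widest reach, with partners up to 250 kb away and 16 of 21 at lower coordinates. Its strongest contact was with the adjacent bin above, which holds a further part of the Snx15 gene, at 12.6, 12.2, 13.4 and 10.02 CPM (12.1 ± 0.504, n = 2). The bin 160 kb below, with Pola2, a subunit of the DNA polymerase alpha-primase complex, had 5.42, 7.62, 13.4 and 9.25 (8.92 ± 3.39, n = 2) in ES cells and 9.35, 4.61 and 6.15 on day 3. The bin 60 kb below, with the sterol reductase gene Tm7sf2, had 8.13, 9.15, 7.21 and 11.2 (8.91 ± 0.393, n = 2). The ES and day 3 values at Pola2 overlapped. The longest contact, 250 kb below and at Frmd8 and Slc25a45, had 3.16, 3.05, 3.09 and 1.93. The bin 40 kb below Snx15, with Cdca5, Zfpl1, Tmem262 and Vps51, was the one partner among all 140 of the 4 genes that was listed in all 9 lists.

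Gbf1 is a long gene that starts in its bin and runs on to chr19:46286510, so nearby partners on that side overlap it. Of the 17 ES KLF4 partners of Gbf1, 11 overlapped the gene, as did 9 of 11 on day 6 and 4 of 6 on day 3. The ES partners lay at a median of 50 kb and at most 160 kb away, near the 60 and 160 kb of Rcor2. The strongest in ES cells was with the bin below, which holds the homeobox gene Pitx3, at 20.8, 16.8, 16.0 and 9.63 CPM (15.8 ± 4.22, n = 2). The bin 10 kb above had 16.3, 23.6, 8.76 and 10.4 in ES cells (14.8 ± 7.33, n = 2). It had 22.6, 25.5 and 18.5 on day 3 (22.2 ± 3.53, n = 3) and 14.6, 12.9, 13.0 and 13.0 on day 6 (13.4 ± 0.778, n = 4). All day 3 libraries lay above all day 6 libraries there, and the ES libraries spanned both. The bin 20 kb above had 8.13, 16.0, 12.4 and 10.8 in ES cells, 14.0, 16.6 and 16.1 on day 3, and 8.18, 8.46, 10.8 and 12.0 on day 6.

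The overlap with the earlier KLF4 lists differed between the genes. Of the 17 ES KLF4 partners of Gbf1, 12 were also in the day 3 or the day 6 list, against 8 of 18 for Rcor2, 3 of 21 for Snx15 and 1 of 17 for Gstp3. In percent this was 70.6 for Gbf1, 44.4 for Rcor2, 14.3 for Snx15 and 5.88 for Gstp3, against 37.1% of all 2220 ES KLF4 interactions on chromosome 19. All 6 day 3 partners of Gbf1 and 10 of its 11 day 6 partners were listed in ES KLF4 too. Over the 6, the day 3 libraries averaged 11.7, 13.3 and 11.8 CPM and the ES libraries 9.71, 13.1, 9.27 and 8.35. Over the 10, the day 6 libraries averaged 7.82, 7.35, 6.07 and 6.80 and the ES libraries 6.91, 10.6, 7.01 and 6.67. The groups overlapped in both cases. Over the 4 Gbf1 partners listed on both day 3 and day 6, the day 3 libraries (12.5, 14.0 and 11.7) all lay above the day 6 libraries (8.41, 7.68, 7.79 and 8.32). Snx15 had 2 such partners, which averaged 8.71 CPM on day 3 and 6.38 on day 6, with overlapping libraries. How often other interactions in both lists were lower on day 6 was not counted. Summed over all listed ES KLF4 interactions, the strength was 120.9 ± 9.99 CPM for Snx15, 117.5 ± 10.6 for Rcor2, 107.8 ± 23.5 for Gstp3 and 119.3 ± 22.6 for Gbf1 (SD, n = 2). These sums follow the interaction numbers by which the bins were chosen, so their likeness is only a description.

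**Figure D2:**
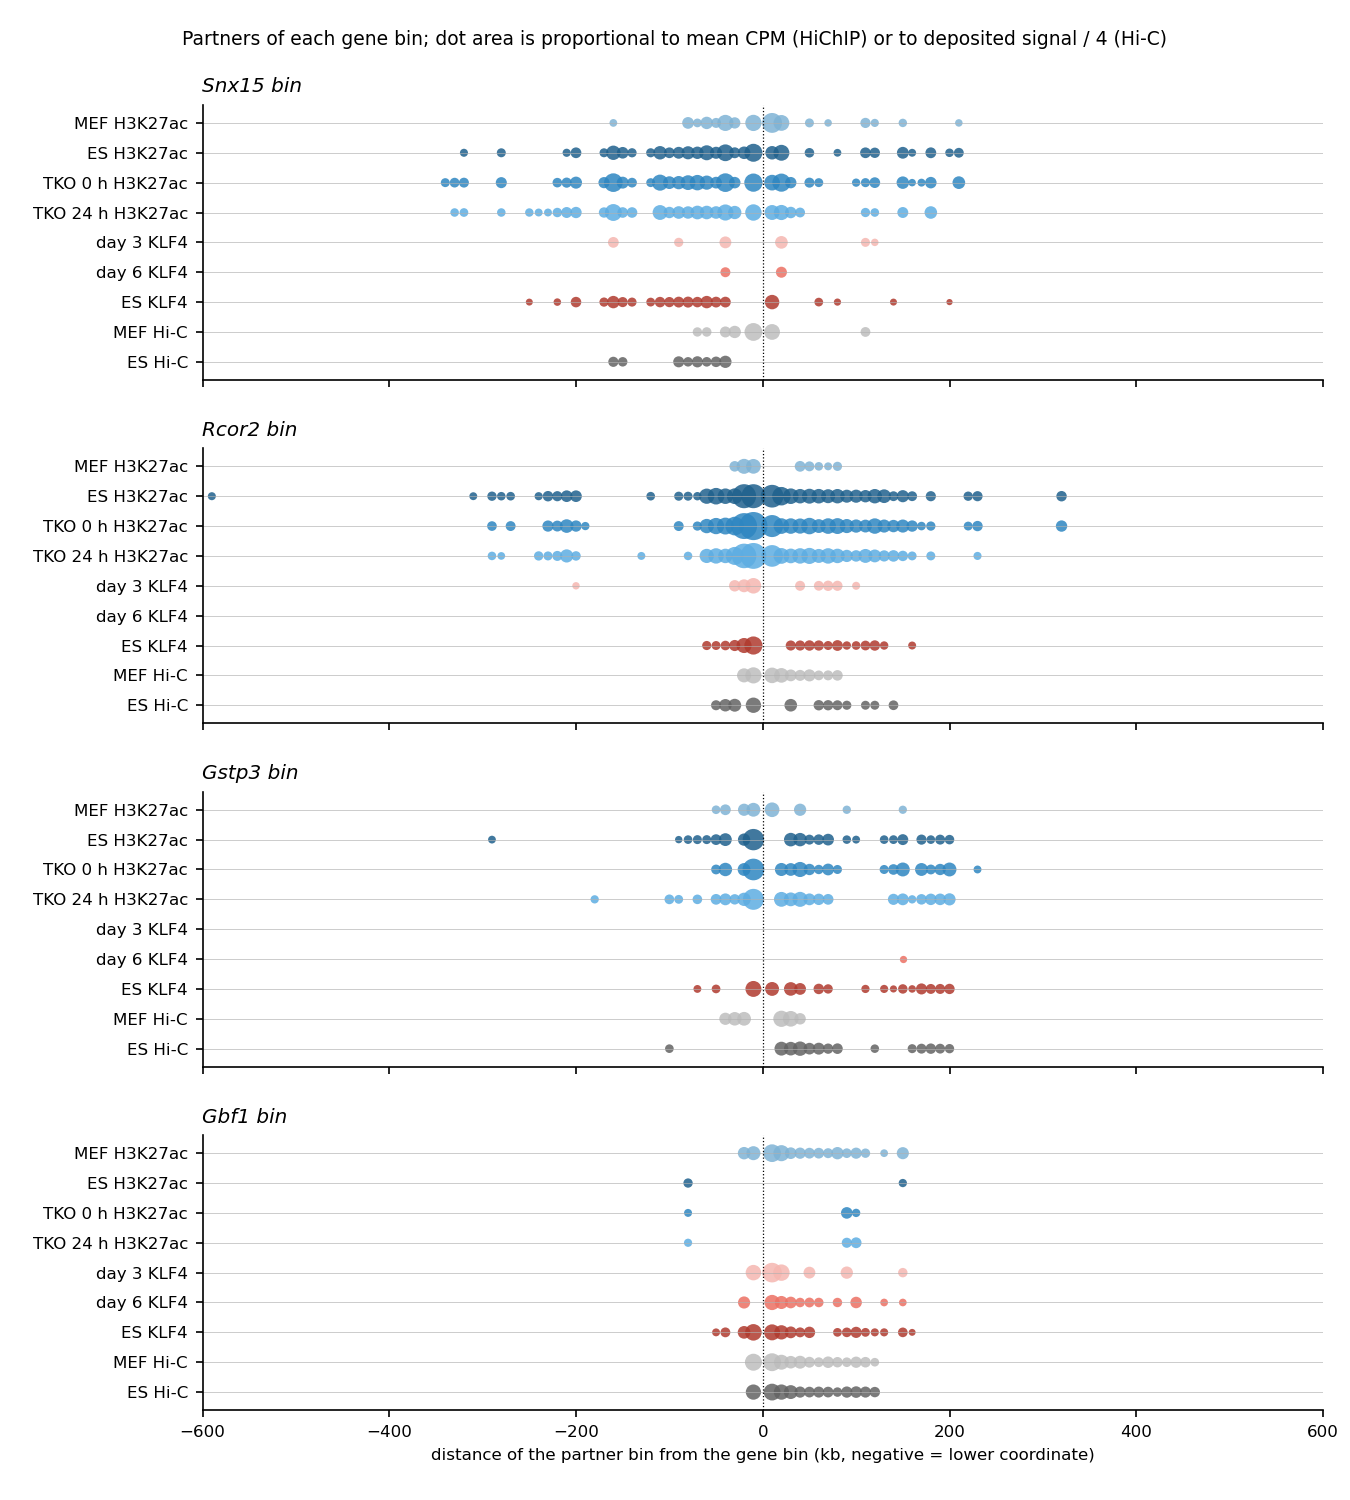
Partner bins of each gene by distance (kb, horizontal axis) in the 9 lists, with dot area proportional to mean CPM, or to the Hi-C signal on a smaller scale. The red ES KLF4 partners of Snx15, Rcor2 and Gstp3 line up with blue ES and TKO H3K27ac partners, while those of Gbf1 line up with MEF H3K27ac partners. Hi-C does not split the genes in this way. The ES Hi-C list holds 8 of 21 ES KLF4 partners of Snx15, 11 of 18 of Rcor2, 9 of 17 of Gstp3 and 11 of 17 of Gbf1.

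The ES KLF4 partners were next looked up in the H3K27ac lists, which were not used to choose the bins. All 18 Rcor2 partners (100%) were listed in ES H3K27ac, as were 17 of 21 for Snx15 (81.0%) and 14 of 17 for Gstp3 (82.4%). For Gbf1 it was 1 of 17 (5.88%), the partner at Nfkb2, which encodes an NF-kappaB subunit. Of all 2220 ES KLF4 interactions on chromosome 19, 67.7% were in that list. Across the 71 chromosome 19 bins with 10 or more ES KLF4 interactions, the median share was 83.3%, and Gbf1 had the lowest of them. The bin that starts at chr19:43800001 was close to it, at 7.69%.

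In MEF H3K27ac, Gbf1 had the largest share of the 4 genes. It had 13 of its 17 ES KLF4 partners listed there (76.5%), against 7 of 21 for Snx15 (33.3%), 8 of 18 for Rcor2 (44.4%), 5 of 17 for Gstp3 (29.4%) and 41.0% of all chromosome 19 interactions. The MEF list held, and the ES list lacked, 12 of 17 for Gbf1 (70.6%), 1 for Gstp3 and 0 for Snx15 and Rcor2, against 6.94% on the chromosome. Gbf1 had the highest such share of the 71 bins, whose median was 0. None of the 3 ES-type H3K27ac lists (ES, TKO at 0 h and at 24 h) held 14 of the 17 Gbf1 partners (82.4%), 2 Gstp3 partners, 1 Snx15 partner or any Rcor2 partner, against 23.3% on the chromosome. With partners up to 1 bin apart counted as shared, ES H3K27ac held 20 of the Snx15 partners, 18 of Rcor2, 16 of Gstp3 and 2 of Gbf1. These shares are descriptions and were not tested.

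The values at Gbf1 show the same split. Its contact with the bin 10 kb above had 18.0 and 18.2 H3K27ac CPM in the MEF libraries, and that with Pitx3 had 8.42 and 14.2, and neither was listed in ES H3K27ac. The ES H3K27ac list held 2 Gbf1 partners, Nolc1 (a nucleolar protein gene, 80 kb below) at 4.47 and 5.55 and Nfkb2 (150 kb above) at 3.30 and 4.62. Both lay outside the Gbf1 gene, while 12 of its 15 MEF partners overlapped it. Of the ES KLF4 partner bins that the authors annotated, 13 of 21 for Snx15, 15 of 18 for Rcor2, 9 of 17 for Gstp3 and 2 of 16 for Gbf1 held an H3K27ac ChIP peak in TKO cells at 0 h, against 47.6% of 1333 such bins on the chromosome.

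**Figure D3:**
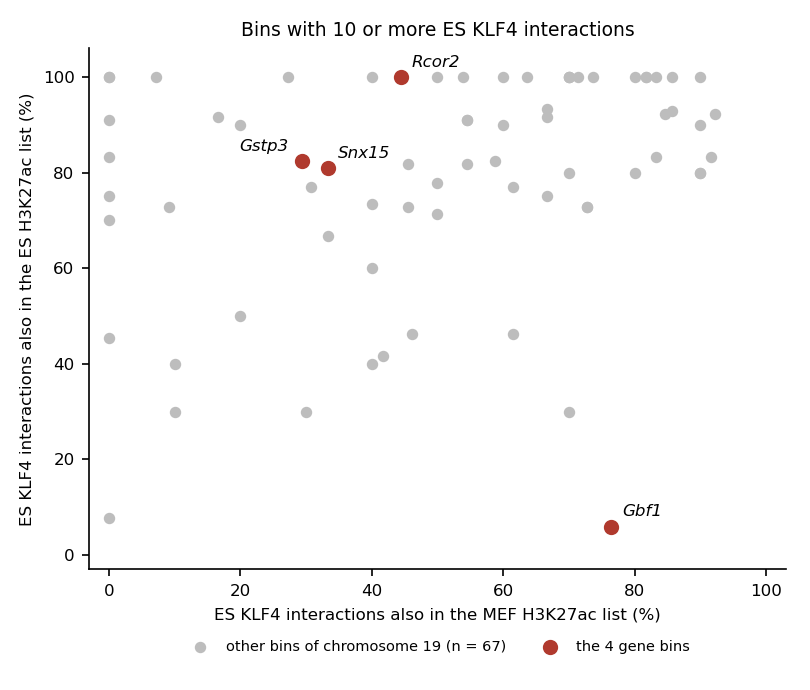
Percent of a bin's ES KLF4 interactions also listed in MEF H3K27ac (horizontal axis) and in ES H3K27ac (vertical axis), for the 71 chromosome 19 bins with 10 or more. Gbf1 (red, lower right) stands at 76.5% and 5.88%, apart from Snx15, Rcor2 and Gstp3, which lie at 81.0% or more on the vertical axis.

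H3K27ac strength was compared between MEF and ES cells over the interactions listed in both, by the quasi-likelihood test of edgeR on the deposited counts and Benjamini-Hochberg adjustment over all interactions tested. All 31 such interactions of the 4 genes passed the count filter. At an adjusted p under 0.05, 10 were higher in ES cells, 2 were lower and 19 did not pass, against a background of 32.0% of 17901 called (17.6% higher and 14.4% lower). Rcor2 gave most of the increase, with 7 of 8 higher and a median log2 change of 1.15, where the median of all tested interactions was -0.04. Scaled by contact totals without TMM factors, the median of all interactions moved to 0.21, and 77.2% in place of 55.1% of the calls were higher in ES cells.

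At Rcor2 the contact 10 kb below had 15.2 and 9.87 CPM in MEF and 33.0 and 33.5 in ES cells, a log2 change of 1.31 ± 0.24 (SE, edgeR adjusted p = 1.23e-06). The contact with Naa40 had 10.1 and 15.8 in MEF and 29.2 and 37.4 in ES cells (1.16 ± 0.23, edgeR adjusted p = 9.15e-06). The contact 70 kb above had 3.37 and 3.95 in MEF and 10.6 and 12.0 in ES cells (1.45 ± 0.35, edgeR adjusted p = 2.43e-04). At each of the 3 both ES libraries lay above both MEF libraries. The partner that missed the threshold, 40 kb above Rcor2, changed by 0.65 (edgeR adjusted p = 0.0705). Without MEF replicate 2, 4 of the 8 passed. DESeq2 gave an adjusted p for 3 of the 8 and called 2 of them, and 7 of the 8 had an unadjusted p under 0.05.

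At Snx15, 15 interactions were tested, 2 were higher and 1 was lower, with a median of 0.18. The contact with Pola2 had 3.37 and 3.55 CPM in MEF and 11.1 and 12.7 in ES cells (1.61 ± 0.36, edgeR adjusted p = 6.35e-05). The contact with Fau and Mrpl49, genes of ribosomal proteins, had 4.49 and 4.34 in MEF and 9.18 and 8.55 in ES cells (0.85 ± 0.35, edgeR adjusted p = 0.0456). That call was lost with each library left out in turn, and over its 10 alternatives the adjusted p ran from 0.00596 to 0.309. The contact with the adjacent bin above went the other way, from 23.0 and 22.5 in MEF to 11.3 and 9.71 in ES cells (-1.26 ± 0.24, edgeR adjusted p = 3.42e-06). In these 3 contacts the MEF and ES libraries did not overlap.

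At Gstp3, 1 of 7 interactions rose, that with Gstp2, from 7.86 and 14.2 CPM in MEF to 23.8 and 28.9 in ES cells (1.03 ± 0.24, edgeR adjusted p = 1.91e-04). The contact of Gstp3 with Gstp1 changed by -0.16 and did not pass (edgeR adjusted p = 0.718). At Gbf1 only the contact with Nfkb2 was in both lists, and it fell from 7.86 and 9.08 in MEF to 3.30 and 4.62 in ES cells (-1.26 ± 0.34, edgeR adjusted p = 0.00155). Without MEF replicate 2 that call was lost (edgeR adjusted p = 0.0719, the highest of its 10 alternatives, which began at 0.00155). The 14 MEF contacts of Gbf1 that the ES list lacks have no ES value and could not be tested.

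**Figure D4:**
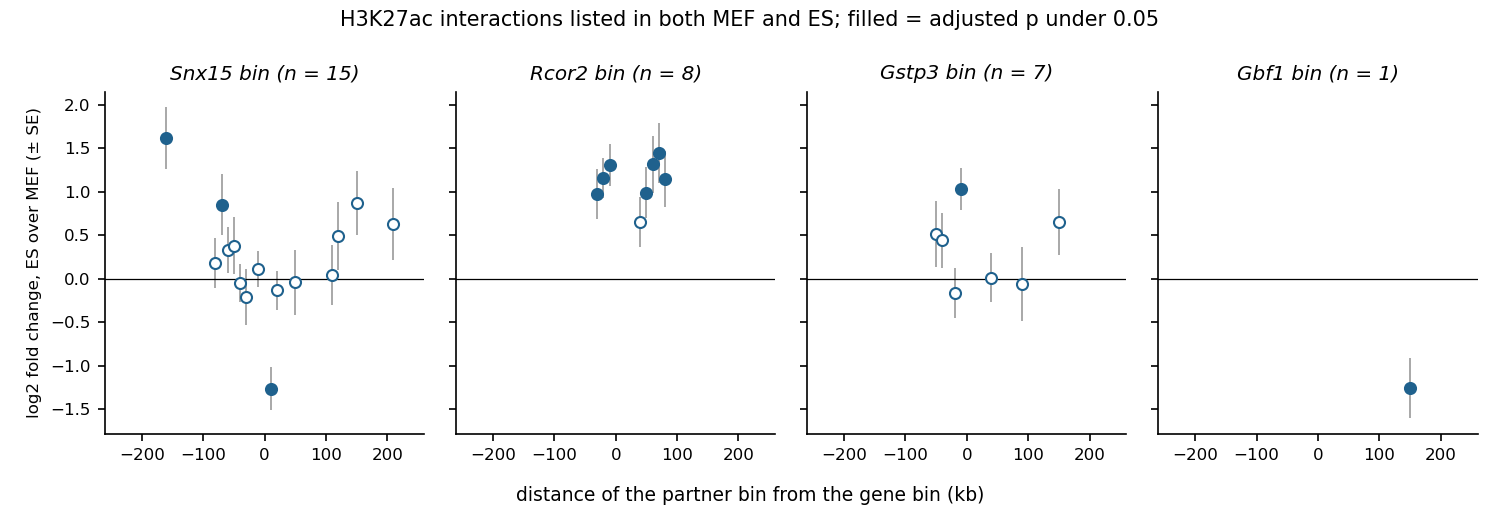
Log2 change of H3K27ac counts from MEF to ES (vertical axis, ± SE) for each interaction in both lists, by distance of the partner (kb, horizontal axis), with filled points for an edgeR adjusted p under 0.05. At Rcor2 7 of 8 points are filled and all lie above 0, while Snx15 has 2 filled points above and 1 below it.

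Summed over the interactions in both lists, the Rcor2 bin had 53.3 and 60.8 CPM in MEF and 133 and 149 in ES cells. The log2 change of the summed counts was 1.15 ± 0.11 (edgeR adjusted p = 6.51e-24), against a background of 39.6% of 16580 bins called, 21.6% higher and 18.0% lower in ES cells. It passed under all 11 alternatives tried, at 1.08 to 1.39. Gstp3 rose from 42.7 and 51.7 to 67.8 and 77.4 (0.46 ± 0.12, edgeR adjusted p = 6.93e-04). Over partners at least 20 kb away, which leaves out the adjacent Gstp2 contact, the change was 0.23 and did not pass (edgeR adjusted p = 0.191). It was 0.50 over partners at least 50 kb away (edgeR adjusted p = 0.0885) and 0.47 with DESeq2 (adjusted p = 0.0562), and passed in neither. Over the 11 alternatives of the Gstp3 sum the adjusted p ran from 2.98e-05 to 0.191.

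The Snx15 sum was 125 and 129 CPM in MEF and 154 and 147 in ES cells, a change of 0.10 ± 0.09 that did not pass (edgeR adjusted p = 0.452). Over partners at least 20 kb away, which leaves out the adjacent contact that fell, Snx15 rose by 0.33 (edgeR adjusted p = 0.00960), and over those at least 50 kb away by 0.61 (edgeR adjusted p = 4.32e-04). It also passed when scaled by contact totals (0.34, edgeR adjusted p = 0.0357), and over its 11 alternatives the adjusted p ran from 4.32e-04 to 0.842. The Gbf1 sum is its 1 contact with Nfkb2, and it fell by 1.25 on the log2 scale (SE 0.34, edgeR adjusted p = 0.00119), with an adjusted p of 0.0621, the highest of its alternatives, without MEF replicate 2.

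The TKO line was compared before and after 24 h of doxycycline over the 75 H3K27ac interactions of these genes in both lists, all of which passed the filter (27 of Snx15, 29 of Rcor2, 16 of Gstp3 and 3 of Gbf1). edgeR's test called 0 of 75 and found 5 with an unadjusted p under 0.05, the smallest adjusted p being 0.224, against a background of 2.8% of 67723 called. DESeq2 also called 0, with an adjusted p given for 4 of them. The median log2 change was -0.15 for Snx15, -0.16 for Rcor2, 0.17 for Gstp3 and 0.19 for Gbf1, where that of all tested interactions was 0.01. The smallest p belonged to a contact of Gbf1 inside its own gene, 100 kb above the bin, with 4.04, 3.03 and 5.06 CPM at 0 h and 7.71, 7.34 and 4.62 at 24 h (log2 change 0.79 ± 0.33), where the libraries overlapped.

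The summed Rcor2 contacts had 407, 397 and 402 CPM at 0 h and 346, 360 and 337 at 24 h, a log2 change of -0.12 ± 0.06 (edgeR adjusted p = 0.196). Snx15 had 279, 279 and 267 at 0 h and 234, 234 and 244 at 24 h (-0.13 ± 0.06, edgeR adjusted p = 0.184). For both genes every 24 h library lay below every 0 h library. Neither passed, against a background of 9.77% of 40531 bins called. Scaling by contact totals, which moved the median bin from 0.01 to -0.10, brought both past the threshold, at -0.22 for Rcor2 (edgeR adjusted p = 0.0438) and -0.23 for Snx15 (edgeR adjusted p = 0.0281). Snx15 also passed with contact totals of each chromosome as offsets (-0.21, edgeR adjusted p = 0.0456). Over 15 alternatives the adjusted p ran from 0.0281 to 0.533 for Snx15 and from 0.0438 to 0.446 for Rcor2.

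Gstp3 had 154, 156 and 161 CPM at 0 h and 152, 159 and 149 at 24 h (0.06, edgeR adjusted p = 0.672). Scaled by contact totals the change was -0.04. Gbf1 had 14.5, 16.9 and 15.2 at 0 h and 16.0, 16.5 and 17.1 at 24 h (0.19, edgeR adjusted p = 0.648). The libraries of the 2 times overlapped for both genes.

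**Figure D5:**
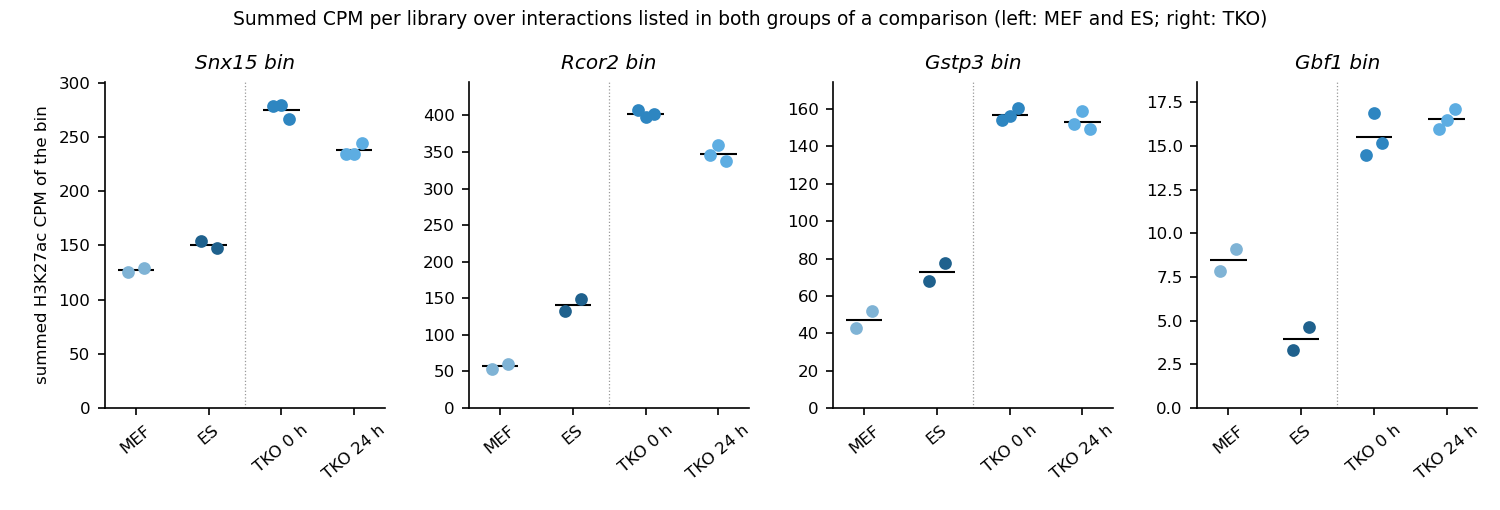
Summed H3K27ac CPM of each gene bin per library (vertical axis, dots; lines are means of the libraries), over interactions in both MEF and ES lists (left of the dotted line) or in both TKO lists (right). Rcor2 goes from 53.3 and 60.8 in MEF to 133 and 149 in ES cells, and Rcor2 and Snx15 lie slightly lower at 24 h than at 0 h.

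Hi-C listed 7 interactions for Snx15, 10 for Rcor2, 6 for Gstp3 and 13 for Gbf1 in MEF, and 8, 12, 14 and 13 in ES cells. Of 391 annotated chromosome 19 bins, 71.1% had more in ES cells. The Gbf1 bin kept all 13 partners between the cell types, whereas Snx15 shared 3, Rcor2 5 and Gstp3 3. On the whole chromosome, 49.7% of the 6338 MEF interactions were in the ES list and 43.9% of the 7168 ES interactions in the MEF list. With 1 count cutoff the order of MEF and ES turned for Snx15 (5 and 3) and Rcor2 (10 and 5), Gbf1 had 11 and 8, and Gstp3 had 6 in both. Of the 13 Hi-C partners of Gbf1, 12 overlapped its gene. The strongest, 10 kb above Gbf1, had a signal of 81.1 and 66.6 in MEF and 71.5 and 58.6 in ES cells, and that with Pitx3 had 65.2 and 68.0 in MEF and 46.5 and 60.6 in ES cells. Values at the first overlapped, and at Pitx3 both ES libraries lay below both MEF libraries.

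None of the 24 shared Hi-C interactions was called (edgeR, 1 with an unadjusted p under 0.05, smallest adjusted p = 0.702), and DESeq2 called 0 of 24, against a background of 0.0322% of 124204. Over its 13 shared partners, the summed Hi-C signal of Gbf1 was 487 and 446 in MEF and 426 and 496 in ES cells. The log2 change was 0.02 ± 0.11 (edgeR adjusted p = 0.994). Snx15 changed by 0.33 ± 0.19 (edgeR adjusted p = 0.685), Rcor2 by 0.04 (edgeR adjusted p = 0.991) and Gstp3 by -0.10 (edgeR adjusted p = 0.961). The H3K27ac list of Gbf1 went from 15 to 2, but that is a number of listed contacts and not a strength. The Gbf1 H3K27ac sum covers only the contact with Nfkb2, which is not among those 13. Rcor2, whose shared H3K27ac contacts rose, had a summed Hi-C signal of 165 and 161 in MEF and 166 and 161 in ES cells. The H3K27ac sum covers 8 interactions, among them the contact with Naa40. The Hi-C sum covers 5, without Naa40, and the 2 sets only partly overlap. Contacts missing from either Hi-C list are not in the Hi-C sum. The background was 0.0516% of 73677 bins called, and on simulated counts the test found 30.5% of 2-fold changes in single Hi-C interactions and 76.5% in bins. With 1 library left out, 8 to 3074 bins were called, the most without ES replicate 2.

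Genes of the same families or complexes were read the same way. Of the 2 other pi class transferases, Gstp2 had 3 listed H3K27ac interactions in MEF, 23 in ES cells and 8 in ES KLF4, and its summed contacts rose from MEF to ES by 0.76 (edgeR adjusted p = 3.99e-06), while Gstp1 changed by -0.15 and did not pass (edgeR adjusted p = 0.710). The Gstp2 and Gstp3 sums share the contact between those 2 bins. Of 8 CoREST genes 4 could be tested and 2 rose, where 21.6% of all bins were higher. These were the deacetylase gene Hdac1 at 1.44 (edgeR adjusted p = 3.70e-13) and Hmg20b, which encodes an HMG box subunit, at 0.90 (edgeR adjusted p = 1.61e-09). The demethylase gene Kdm1a changed by 0.35 (edgeR adjusted p = 0.165) and the corepressor gene Rcor1 by -0.09 (edgeR adjusted p = 0.708), and neither passed.

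Of 11 sorting nexin and retromer genes 5 could be tested and 1 rose, Snx17, at 0.69 (edgeR adjusted p = 1.78e-07), a share near the background of 21.6%. None of 5 tested Arf and COPI genes, the pathway Gbf1 acts in, passed in either direction, against a background of 39.6% of bins. Their median change was -0.19. In the TKO comparison 9.77% of all bins were called. None of the 2 pi class, 6 CoREST, 10 sorting nexin and retromer and 6 Arf and COPI genes tested was. For Hi-C the background was 0.0516% of bins, and none of 1, 5, 5 and 5 genes tested, in that order, was called. By the number of listed interactions over the 7 HiChIP lists, the annotated chromosome 19 bins most like Rcor2 were those of Eef1g, Ubxn1 and Mta2, at Euclidean distances of log2 numbers of 1.04, 1.48 and 1.54. Those most like Snx15 were the bins of Bscl2 and Gng3 (1.08), Mta2 (1.47) and Lrrn4cl (1.65), and those most like Gstp3 were Macrod1 (1.70), Ccs (1.74) and Slc25a28 (1.77). The bins nearest to Gbf1 were farther off, Erlin1 at 2.92, Sh3pxd2a at 3.02 and Prdx3 at 3.07.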

How the data were processed

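Each interaction list pairs 10 kb bins and, per the file headers, holds the raw count, a CPM value, 1 p-value and 1 FDR (a q-value) per interaction; the deposited distance-normalised ratio and the deposited domain scores were not used. The submitters' processing notes name mm10 and Bowtie2 2.2.3; the contact caller and its test are not given in the sources used here. The deposited HiChIP CPM is the count over the library's contacts on that chromosome, as count over CPM shows; the deposited Hi-C signal is scaled by constants of unstated origin. Listed p-values are under 0.1 (HiChIP) or 0.01 (Hi-C) in the deposited files. No deposited Hi-C signal is under 15. In the H3K27ac lists, and in replicates 1 and 2 of the KLF4 lists, no deposited CPM is under 3. The lowest CPM was 0 in day 3 replicate 3 and in ES KLF4 replicates 3 and 4. It was 0.567 in day 6 replicate 3 and 0.343 in day 6 replicate 4.

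Interactions in both lists of a comparison were tested on raw counts with edgeR 4.0.16 (R 4.3.3): quasi-likelihood test, filterByExpr, TMM factors on contact totals (for Hi-C on summed counts), each fit holding just its 2 groups, Benjamini-Hochberg over all features and a threshold of 0.05. Bin sums add the counts of a bin's interactions in both lists. SE is the size of the log2 change over the normal quantile of its p. Libraries were joined where a chi-square test gave p of at least 0.05 while some other pair of that group differed; TKO 0 h replicates 2 and 3 (p = 0.0490) were kept apart. No pair of day 6 libraries differed, so the rule joined none and all 4 were kept. Their n = 4 is therefore not comparable with the n = 2 of ES KLF4. Alternatives were DESeq2 1.42.0, other scalings, no filter, a distance minimum, a replicate block and leaving out each library. The main fits did not pair samples by replicate number, and whether shared numbers mark pairs could not be told.

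The genes, lists and related families were chosen with earlier results of these data known. Named interactions were, per gene, the 3 strongest and the longest in ES KLF4, and every called one where there were 5 or fewer, otherwise the 3 with the smallest adjusted p; others are named as examples seen after their values. The RefSeq promoter table matched 3 of the 4 genes. On simulated counts with 200 features changed 2-fold, the test recovered 77% of interactions and 84% of bins for MEF and ES H3K27ac, and 74% and 93% for TKO. Tables were handled with Python 3.11.15, pandas 2.3.3, numpy 2.4.6 and scipy 1.17.1, and drawn with matplotlib 3.10.9.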

Additional observations from a re-analysis of the deposited data

Results flagged for a closer look

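At 2 named contacts 1 of 4 KLF4 libraries stood apart from the other 3 by Dixon's test. In ES cells the longest contact of Snx15, with the bin of Frmd8 and Slc25a45, had its lowest value, 1.93 CPM, in replicate 4, and the others lay at 3.05 to 3.16. On day 6 the contact of Gbf1 with the bin 10 kb above had its highest value, 14.6 CPM, in replicate 1, and the others lay at 12.9 to 13.0. Among the 25 sets of 4 libraries checked, chance puts about 1 in 20 apart.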

How the results depend on the processing

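Over partners at least 20 kb and at least 50 kb apart, the calls over all features were 3368 and 627 for MEF to ES H3K27ac interactions (5721 without a minimum) and 4225 and 806 for bins (6565). For TKO they were 940 and 174 interactions (1894) and 2170 and 449 bins (3958), and at 50 kb for Hi-C 7 interactions (40) and 221 bins (38). DESeq2 called 2458, 3358, 269, 1028, 0 and 17 in the same order. Contact totals without TMM gave 3202 TKO interactions, chromosome offsets 3210, and the authors' Hi-C scaling 61 interactions and 346 bins. Leaving out 1 library gave 3333 to 4849 MEF to ES interactions and 4262 to 5653 bins, both lowest without MEF replicate 2. It gave 1132 to 1328 TKO interactions, 2865 to 3512 TKO bins, 3 to 113 Hi-C interactions and 8 to 3074 Hi-C bins, highest without ES replicate 2. The cause of these shifts was not tested.

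Deviations of same-numbered libraries from their group means correlated at -0.0070 to 0.03. Sampling noise in single interactions pulls such values towards 0, so they cannot show whether shared replicate numbers mark paired samples. With a replicate block, calls were 5879 and 6524 for MEF to ES H3K27ac, 2024 and 4185 for TKO, and 74 and 248 for Hi-C (interactions and bins). Of the named results it changed the Snx15 contact with Fau and Mrpl49 (edgeR adjusted p = 0.0501).

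With 1 count cutoff, the 4 bins together had 7 interactions in MEF H3K27ac (47 as listed), 26 in ES (96), 32 and 26 in TKO (93 and 89), 3, 1 and 8 in KLF4 of day 3, day 6 and ES (21, 14 and 73) and 32 and 22 in Hi-C of MEF and ES (36 and 47), so that the order of MEF and ES turned. At an authors' FDR under 0.1 the numbers were 0, 14, 23 and 14, then 0, 0 and 1, and 4 and 11 in Hi-C of MEF and ES. The shares of the whole lists, in that order, were 1.84, 5.90, 7.74 and 5.83%, then 0.535, 0.173 and 0.199%, and 12.6 and 8.80%. With the neighbouring bins added the numbers were 162 in ES, 159 and 137 in TKO, 35 on day 3, and 73 and 100 in Hi-C. Lists of equal length gave 9 on day 3 and 14 in ES KLF4, and a mean CPM of 5 or more gave 45 in ES KLF4.

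Changes near 0 turned sign at Gstp3 in TKO (-0.038 by contact totals, -0.023 with chromosome offsets), at Gbf1 in Hi-C (-0.010 with the authors' scaling, -0.029 without MEF replicate 2, and -0.093 to 0.13 as each library was left out, lowest without ES replicate 2) and at Rcor2 in Hi-C (-0.0015 with the authors' scaling); none of these passed a threshold. The chromosome 19 depth of 1.10 to 4.33 M contacts leaves the 174 HiChIP values of these bins from 3 to 4 CPM resting on 4 to 17 counts each, and groups of n = 2 or 3 limit each SD.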
